A study of Mus musculus with 28 samples.

Results

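The 9 genes described here move ions, bicarbonate and, with them, water across the intestinal epithelium. They were chosen by gene name: Cftr (ENSMUSG00000041301), Slc12a2 (ENSMUSG00000024597), Slc9a3 (ENSMUSG00000036123), Slc26a3 (ENSMUSG00000001225), Slc26a6 (ENSMUSG00000023259), Slc4a4 (ENSMUSG00000060961), Atp1b1 (ENSMUSG00000026576), Guca2a (ENSMUSG00000023247) and Guca2b (ENSMUSG00000032978). Each had 1 row in each expression table, so they are 9 of 29413 genes in the table of the bone morphogenetic protein (BMP) experiment and 9 of 55416 in that of the transforming growth factor beta (Tgfb) experiment. All 9 passed the filter on low values in both tables, each on its mean over all samples.

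The samples were small intestinal organoids, which are cultures of epithelium grown from mouse crypts in Matrigel, and RNA was measured by sequencing. Every organoid sample carried the genotype WT (C57BL/6), was first grown without added Bmp or Tgfb, and was epithelium only, without mesenchyme; the age of the mice is not given in the sources used here. In the BMP experiment 4 samples were untreated (control), 4 received recombinant Bmp2 and 3 each received Bmp3, Bmp4, Bmp5 or Bmp7, at 500 ng/ml for 24 h. In the Tgfb experiment 3 samples were untreated and 3 received recombinant Tgfb at the same dose and time. Samples are named by group and by the Roman number in their label. The labels do not say whether samples of a group came from separate cultures or mice, so the p-values measure the spread between samples, which may be technical. The labels mention 2 sequencing runs without saying which sample was in which.

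An intestinal crypt secretes fluid and the villus absorbs it. In the secreting cell Slc12a2, the sodium-potassium-chloride cotransporter NKCC1 of the basolateral membrane, loads chloride, and Cftr, the chloride and bicarbonate channel of the apical membrane, releases it. In the villus, Slc9a3 (the sodium-proton exchanger NHE3) works beside the chloride-bicarbonate exchangers Slc26a3 (DRA) and Slc26a6 (PAT1) to take up salt, and water follows. Slc4a4 brings bicarbonate into the cell from the blood side, and Atp1b1 is a beta subunit of the sodium pump that drives all of these fluxes. Guanylin (Guca2a) and uroguanylin (Guca2b) are secreted peptides that activate guanylate cyclase C, which raises cyclic GMP, favours Cftr activity and restrains Slc9a3. BMP signalling is known to be stronger towards the villus than in the crypt.

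The bases before the start sites of 4 of these genes are shown because Slc9a3 and Slc26a3 moved together across the BMP samples, while the neighbours Guca2a and Guca2b on chromosome 4 did not. Each is the 250 bases before the RefSeq start site in GRCm38.p6, written 5′ to 3′ on the gene's strand; capitals mark a TATAAA match, and a run with no capitals held no match to any motif searched.
Slc26a3, chr12:31437969-31438218, plus strand: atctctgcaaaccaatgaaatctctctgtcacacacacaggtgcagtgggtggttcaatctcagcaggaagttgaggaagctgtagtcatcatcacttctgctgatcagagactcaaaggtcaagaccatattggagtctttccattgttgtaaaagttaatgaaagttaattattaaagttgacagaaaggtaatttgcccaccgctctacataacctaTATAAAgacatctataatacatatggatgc
Slc9a3, chr13:74121163-74121412, plus strand: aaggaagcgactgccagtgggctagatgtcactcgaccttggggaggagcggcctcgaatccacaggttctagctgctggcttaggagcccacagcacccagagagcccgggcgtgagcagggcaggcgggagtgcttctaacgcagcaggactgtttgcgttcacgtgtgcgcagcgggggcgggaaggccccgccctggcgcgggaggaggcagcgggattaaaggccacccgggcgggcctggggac
Guca2a, chr4:119637482-119637731, plus strand: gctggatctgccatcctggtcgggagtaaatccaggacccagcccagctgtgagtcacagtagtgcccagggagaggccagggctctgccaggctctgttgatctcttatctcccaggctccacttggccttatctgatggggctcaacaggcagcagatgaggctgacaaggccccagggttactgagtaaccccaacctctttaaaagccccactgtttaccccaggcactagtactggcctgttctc
Guca2b, chr4:119658946-119659195, minus strand: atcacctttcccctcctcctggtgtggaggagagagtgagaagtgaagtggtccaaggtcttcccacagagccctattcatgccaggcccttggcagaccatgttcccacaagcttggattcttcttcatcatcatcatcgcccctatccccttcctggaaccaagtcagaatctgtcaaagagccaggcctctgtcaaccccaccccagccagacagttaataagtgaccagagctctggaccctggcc
RefSeq windows were read for 8 of the 9 genes, 9 windows in all because Slc4a4 had 2. Both strands were searched for GGCGCC and GTCTAGAC, which are Smad-type motifs, for the caudal-type motif TTTATNG, for CAAAGTCCA, which is a motif of the HNF4 type, and for TATAAA, which was added after the sequences had been seen. The TATAAA match of Slc26a3 lay at -30 to -25 from its start site, and 12.4% of all 32851 windows held this motif. GGCGCC occurred at -201 to -196 in Cftr and at -181 to -176 in 1 window of Slc4a4, and 9.59% of windows held it. None of the 9 windows held GTCTAGAC, TTTATNG or CAAAGTCCA, which occurred in 0.167%, 9.81% and 0.384% of all windows.

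In untreated organoids of the Tgfb experiment, where length-corrected transcript shares (TPM) allow levels of different genes to be set side by side, Atp1b1 had the highest level of the 9 at 721 ± 28.6 TPM (SD, n = 3) and Slc12a2 the next at 348 ± 19. Guca2a at 233 ± 42.4 TPM and Guca2b at 206 ± 30.6 followed, and their samples overlapped. Cftr stood at 51.2 ± 2.89 TPM, Slc26a3 at 44.5 ± 3.52, and these also overlapped. Slc26a6 had 33.0 ± 3.60 TPM, below every Slc26a3 sample. Slc4a4 at 16.8 ± 2.05 TPM and Slc9a3 at 15.9 ± 3.52 were the lowest and overlapped. The secretory cotransporter Slc12a2 thus exceeded each of the 3 absorptive exchangers in these untreated cultures.

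The table of the BMP experiment holds counts scaled by a size factor per sample, called normalized counts here. Recovered depth was 21358620 to 24784834 reads per sample, with 1 read worth 0.826 to 1.28 normalized counts. The scaled totals were higher with Bmp2 (27350549 ± 1181883, n = 4) and Bmp4 (26232395 ± 706629, n = 3) than in control (19885612 ± 702378, n = 4). Setting every sample to the same total moved the median difference of all genes by -0.46 for Bmp2 and -0.40 for Bmp4 on the log2 scale. It changed the split of genes called for Bmp2 from 5420 higher and 5657 lower to 3601 and 7820, for Bmp4 from 4964 and 4633 to 3080 and 6896, and for Bmp7 from 2833 and 1940 to 2575 and 2731. All 6 epithelial markers (Epcam, Cdh1, Vil1, Krt8, Krt19, Cdx2) were present in every group, and Col3a1, a defining collagen of mesenchymal cells, was at 0 in the control, Bmp5 and Bmp7 samples and in both groups of the Tgfb experiment. Summed over the 5 of 6 mesenchymal markers with a row in the BMP table, they reached 1.19 to 55.4 normalized counts per sample.

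How many of the 9 genes changed depended on the ligand. The test was limma's moderated test on log2(value + 1), fitted across all genes of a table without pairing of samples. A gene is called when its Benjamini-Hochberg adjusted p over all genes is under 0.05, and each difference is in log2 units with its 95% interval. Bmp2 lowered 6 of the 9 and raised 1, with 75.1% of all genes called in either direction. Bmp4 raised 4 and lowered 2 (65.1% of all genes called). Bmp7 lowered 6 (32.4% called) and Bmp5 lowered 3 (26.3% called). Tgfb lowered 7 of the 9 and raised none, beside 56.7% of genes called. In these fits without pairing, the shares of the 9 called with Bmp2, Bmp4 and Bmp5 were near those of all genes. With Bmp7 and Tgfb they were above those, a difference that was not tested. Pairing samples by their Roman number added calls for Slc4a4 and Guca2a with Bmp4, and for Slc9a3, Guca2a and Guca2b with Bmp5. It also added Slc12a2 and Slc4a4 with Bmp7. The genes called of all 14746 then numbered 10582 with Bmp4, 5738 with Bmp5 and 6689 with Bmp7. The median over the 9 genes was -1.49 for Bmp2 (all genes tested -0.03), 0.37 for Bmp4 (0.04), -0.51 for Bmp5 (-0.03), -0.80 for Bmp7 (-0.05) and -0.80 for Tgfb (-0.04).

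With Bmp3 no gene was called by limma, of the 9 or of all 14746 (0% called); 110 genes (0.746%) had an unadjusted p under 0.05, edgeR on the recovered reads called 0 and DESeq2 called 1. The 9 differences from control lay between -0.29 and 0.17, and in each of the 9 the samples overlapped the controls. The widest interval was that of Slc9a3, from -1.24 to 0.69, so a moderate change of that gene was not detectable here.

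**Figure D1:**
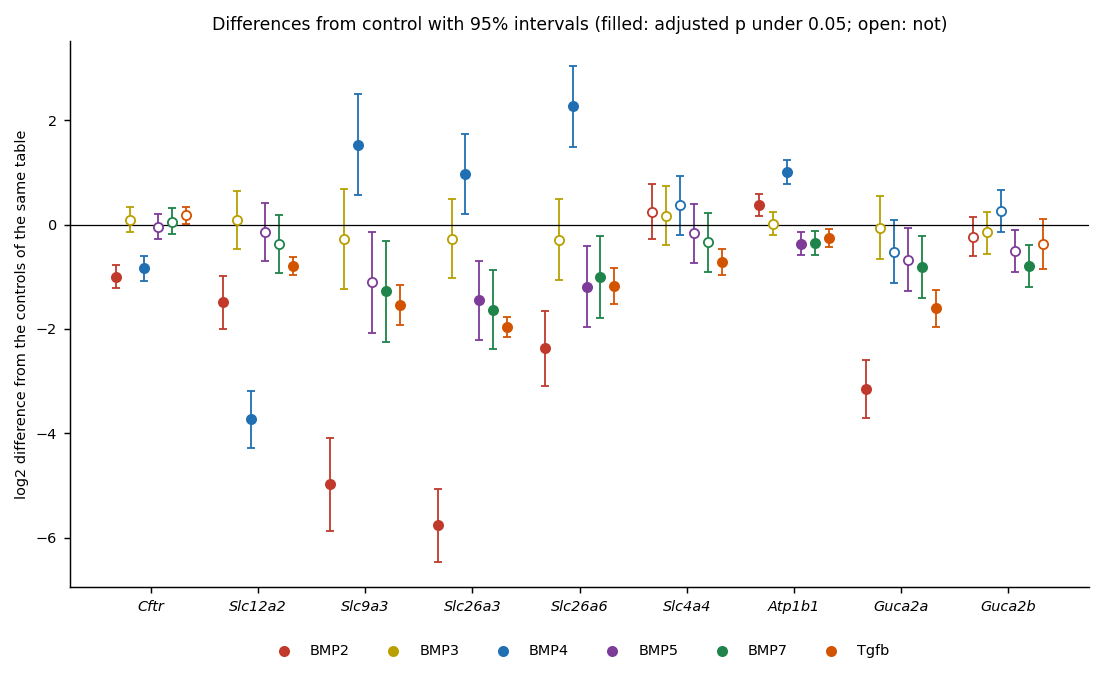
Difference of each gene from the controls of its own table (y axis, log2 units) for the 6 ligands, with 95% intervals; filled points passed an adjusted p of 0.05 and open points did not. The Bmp2 points of Slc9a3 and Slc26a3 lie at -4.98 and -5.76, and the Bmp4 points of the same genes lie above 0 at 1.53 and 0.97.

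Of the secretory pair, Cftr was 1.99-fold lower with Bmp2 and 1.80-fold lower with Bmp4, and was not called with any other ligand. In control II, III, IV and VI it had 4810, 4260, 5310 and 4030 normalized counts. With Bmp2 the samples II, III, IV and VI had 2160, 1880, 2360 and 2860, and with Bmp4 the samples II, III and VI had 2650, 2380 and 2630. Every sample of these 2 ligands lay below every control. The difference was -1.0 with Bmp2 (-1.22 to -0.78, adjusted p = 8.41e-08) and -0.84 with Bmp4 (-1.08 to -0.60, adjusted p = 3.65e-06). Bmp2 and Bmp4 differed from each other by -0.16 (-0.40 to 0.09, adjusted p = 0.242), which did not pass the test, though it did without Bmp2 VI (-0.26, adjusted p = 0.0312). The differences with Bmp3, Bmp5 and Bmp7 were 0.09, -0.04 and 0.06, with intervals inside -0.28 to 0.33. With Tgfb the control samples I, II and III had 48.0, 53.6 and 52.0 TPM and the treated samples 56.1, 57.8 and 59.9. These groups did not overlap, but the difference of 0.18 (0.01 to 0.34) missed the threshold at an adjusted p of 0.066. The exons of Cftr overlap an antisense gene, Gm15592, and those of Atp1b1 overlap Nme7 on the other strand; whether counting used the strand is not given in the sources used here, so reads of these partners may be mixed.

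Slc12a2, the chloride loader, fell with the same 2 ligands, and further with Bmp4 than with Bmp2. Control II, III, IV and VI had 43000, 38300, 38800 and 30400 normalized counts. With Bmp4 the samples II, III and VI had 3320, 2920 and 2290, and with Bmp2 the samples II, III, IV and VI had 17800, 19100, 11500 and 8000. The 3 sets did not overlap. The mean was 13.2-fold lower than control with Bmp4 (difference -3.73, -4.28 to -3.18, adjusted p = 1.19e-09) and 2.67-fold lower with Bmp2 (-1.49, -2.0 to -0.98, adjusted p = 1.88e-05). Compared directly, Bmp2 samples were 2.24 higher than Bmp4 samples (1.69 to 2.79, adjusted p = 4.50e-07), so these ligands differed in Slc12a2 while no difference was shown in Cftr. Bmp5 samples II, III and VI had 46000, 33700 and 25200, and Bmp7 samples II, III and VI had 33200, 33800 and 21400. Neither differed from control in the test without pairing (Bmp5 -0.14, adjusted p = 0.745; Bmp7 -0.37, adjusted p = 0.293). With samples paired by number the Bmp7 difference of -0.38 passed (adjusted p = 0.0349). In each of the 5 groups that held a sample VI, that sample had the lowest Slc12a2 count. With Tgfb the level fell from 337, 370 and 336 TPM in control I, II and III to 203, 206 and 189, a difference of -0.80 (-0.97 to -0.62, adjusted p = 0.000201).

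Stem cell markers of the crypt were read beside the secretory pair. The summed counts of 5 markers (Lgr5, Olfm4, Ascl2, Smoc2, Axin2) ranged over 99818 to 124495 in untreated samples. The Bmp2 samples held 1165 to 2048 and the Bmp4 samples 3689 to 6504. Sums of 27409 to 77174 were found for Bmp5 and of 24229 to 28513 for Bmp7. In TPM the untreated samples held 2504 to 2956 and the Tgfb samples 165 to 172. The sums were below control also with Bmp5, Bmp7 and Tgfb. Without pairing, Cftr was called with none of these ligands and Slc12a2 only with Tgfb. With samples paired by number Slc12a2 was also called with Bmp7. Olfm4 made up most of the sum in control, at a mean of 92700 normalized counts, and Lgr5 averaged 4340 in control, 9.5 with Bmp2 and 26.9 with Bmp4. Ascl2 averaged 312 in control and 34.2 in Bmp2 samples, but 354 in Bmp5 samples and 384 in Bmp7 samples. All 5 were above 0 in every group, and their part in the result was not tested. In such bulk samples, fewer cells of a type and less RNA per cell cannot be told apart.

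The 3 absorptive exchangers took opposite directions with Bmp2 and Bmp4: all of Slc9a3, Slc26a3 and Slc26a6 fell with Bmp2 and all rose with Bmp4. Slc26a3, the chloride-bicarbonate exchanger whose loss causes congenital chloride diarrhoea, had 1610, 1260, 1930 and 2210 normalized counts in control II, III, IV and VI. With Bmp2 the samples II, III, IV and VI had 23.8, 24.3, 20 and 74.7, and with Bmp4 the samples II, III and VI had 3690, 3030 and 3360. Again the 3 sets were apart from each other. The Bmp2 mean was 49.1-fold below control (difference -5.76, -6.47 to -5.06, adjusted p = 2.11e-11), and 77.2-fold below it without Bmp2 VI. The Bmp4 mean was 1.92-fold above it (0.97, 0.20 to 1.73, adjusted p = 0.0258). That call was lost when all samples were set to the same total (0.57, adjusted p = 0.158), after quantile normalization (0.62, adjusted p = 0.175) and without Bmp4 II (adjusted p = 0.0758), Bmp4 VI (0.0569) or control III (0.0752).

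Slc9a3, the sodium-proton exchanger of the brush border, followed Slc26a3. It had 621, 657, 1320 and 1100 normalized counts in control II, III, IV and VI. Bmp2 samples II, III, IV and VI had 15.9, 17.9, 22.4 and 78.5, and Bmp4 samples II, III and VI had 2710, 2850 and 2120. All Bmp2 samples were below and all Bmp4 samples above the control range. The mean was 27.5-fold lower than control with Bmp2 (difference -4.98, -5.88 to -4.09, adjusted p = 3.88e-09) and 2.77-fold higher with Bmp4 (1.53, 0.57 to 2.5, adjusted p = 0.00684). Without Bmp2 VI, which stood above the other Bmp2 samples, the Bmp2 mean was 49.4-fold lower.

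Slc26a6, a second apical anion exchanger, had the smallest fall of the 3 with Bmp2 and the largest rise with Bmp4. Control II, III, IV and VI had 883, 1070, 2130 and 1840 normalized counts. With Bmp2, samples II, III, IV and VI had 156, 229, 376 and 377, and with Bmp4, samples II, III and VI had 6530, 6970 and 6650. The groups were apart, and the Bmp4 samples differed little among themselves (coefficient of variation 3.39%) while the controls spread more widely (40.5%). The difference was -2.37 with Bmp2 (-3.10 to -1.65, adjusted p = 4.63e-06) and 2.27 with Bmp4 (1.49 to 3.05, adjusted p = 2.87e-05).

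Set directly against each other, Bmp2 and Bmp4 differed in 7 of the 9 genes, 1 higher and 6 lower with Bmp2, with 66.8% of all genes called. The difference was widest for Slc26a3, at -6.73 (interval -7.49 to -5.97), followed by -6.52 for Slc9a3 (-7.48 to -5.55) and -4.65 for Slc26a6 (-5.43 to -3.87). The sum of 7 enterocyte markers (Alpi, Fabp1, Fabp2, Apoa1, Apoa4, Sis, Anpep), all above 0 in every group, ran from 52400 to 97900 in control. The Bmp2 samples spanned 32427 to 80501 and the Bmp4 samples 358100 to 434540. For Bmp5 the sums were 37920 to 70650, for Bmp7 29685 to 68980, and for Tgfb 3070.1 to 3875 TPM against 4377 to 6276 in its controls. The part of these markers in the changes of the exchangers was not tested. Members of the list differed in direction with Bmp2, Bmp5, Bmp7 and Tgfb. Anpep averaged 290 normalized counts with Bmp2 against 5780 in control, Sis 1600 against 24575 and Fabp1 1943 against 13825. Fabp2 at 3540 against 3818 and Apoa1 at 5232 against 5698 lay closer, while Alpi averaged 15000 against 10848 and Apoa4 20385 against 8788. With Tgfb, Fabp1 averaged 1025 TPM against 3077, Fabp2 125 against 376, Sis 108 against 615 and Anpep 24 against 126. Alpi at 213 against 87.4, Apoa1 at 1066 against 539 and Apoa4 at 843 against 384 were higher. Apoa1 and Apoa4 also averaged above control with Bmp5 (7110 and 13280) and Bmp7 (6333 and 13797), as did Alpi with Bmp7 (11310). The other means with Bmp5 and Bmp7 were lower.

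**Figure D2:**
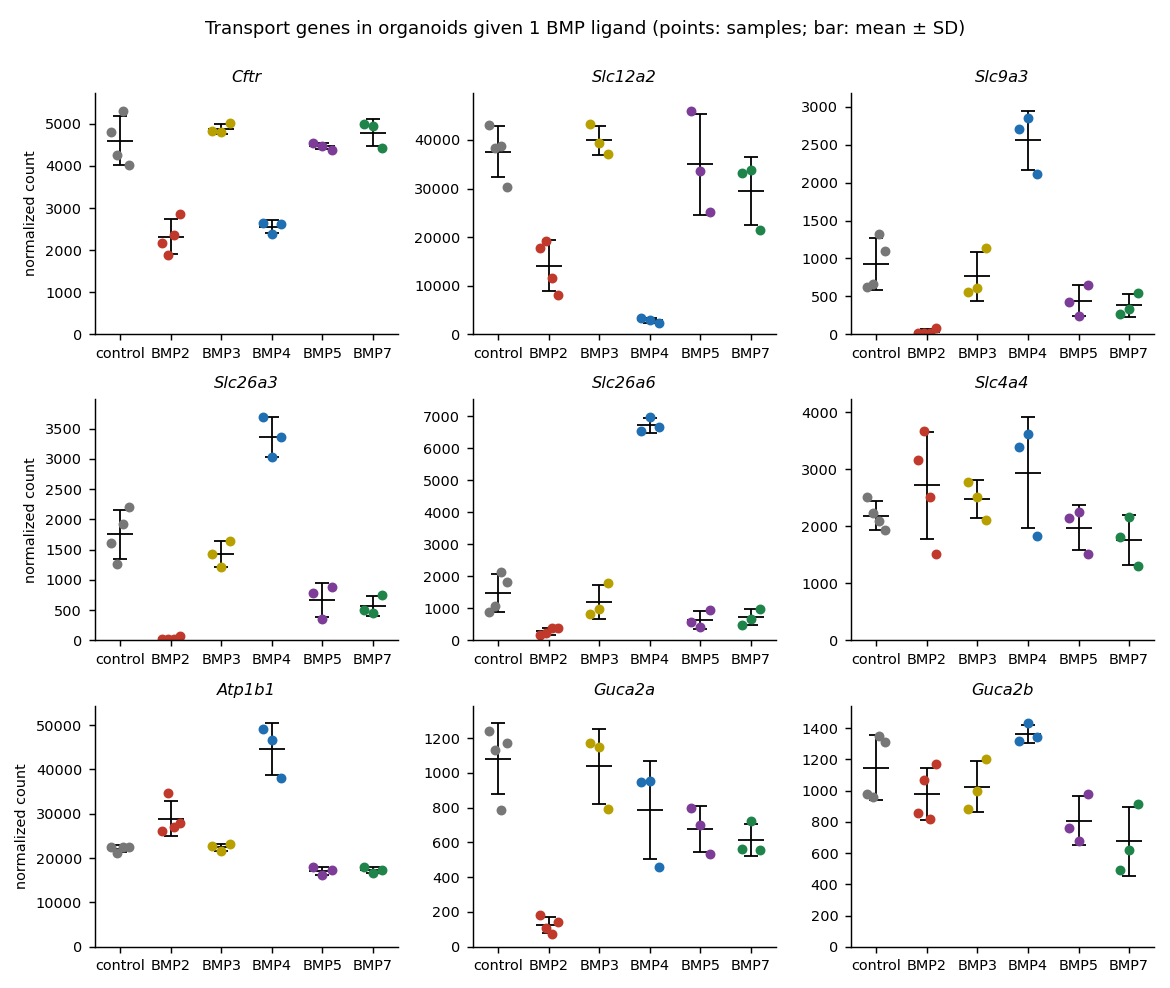
Normalized counts (y axis, linear, from 0) of the 9 genes in each sample of the BMP experiment, by group; points are samples and bars the mean ± SD. Slc12a2 and Cftr sit below control with Bmp2 and Bmp4, and Slc9a3, Slc26a3 and Slc26a6 are near 0 or low with Bmp2 and highest with Bmp4.

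Bmp5 and Bmp7 also lowered exchangers. Slc26a3 had 782, 358 and 880 normalized counts in Bmp5 II, III and VI and 497, 456 and 750 in Bmp7 II, III and VI. Every one of these was below the lowest control. The differences were -1.45 with Bmp5 (-2.21 to -0.69, adjusted p = 0.00606) and -1.63 with Bmp7 (-2.39 to -0.87, adjusted p = 0.00197). Slc26a6 had 569, 414 and 946 with Bmp5 and 495, 678 and 990 with Bmp7, each set overlapping the controls. It passed the test with both, Bmp5 at -1.19 (adjusted p = 0.0235) and Bmp7 at -1.0 (adjusted p = 0.0465). Slc9a3 was lower with Bmp7 at 260, 332 and 548 (-1.28, adjusted p = 0.0405). With Bmp5 it had 423, 245 and 654, and the difference of -1.10 passed only with samples paired by number (-1.01, adjusted p = 0.0354; without pairing 0.086). Bmp5 and Bmp7 were not shown to differ in any of the 9 genes: the differences ran from -0.19 to 0.29, and 0.0136% of all genes (2 of 14746) were called. The interval for Slc9a3, -0.86 to 1.20, was the widest, so it does not show that the pair act alike.

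The counts for Bmp5 and Bmp7 rested on few samples. Without Bmp5 III none of the 9 was called with Bmp5, at adjusted p of 0.0601 for Slc26a3, 0.0817 for Atp1b1 and 0.141 for Slc26a6. With samples paired by number 6 were called, beside 5738 of all 14746 genes. Slc26a6 also lost its Bmp5 call without Bmp5 II (0.0552), control IV (0.0732) or control VI (0.0674). With Bmp7 the count was 3 in place of 6 without Bmp7 II, without Bmp7 III or without control VI. Slc9a3 and Slc26a6 each lost the Bmp7 call without Bmp7 II, Bmp7 III, control IV or control VI, at adjusted p of 0.0927 to 0.167 and 0.093 to 0.205, and Atp1b1 lost it without Bmp7 III (0.0555). Slc26a3 and Guca2b were called with Bmp7 whichever single sample was left out, at -1.85 to -1.49 and -1.04 to -0.59.

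Tgfb lowered all 3 exchangers, beside 56.7% of all genes called in either direction. Slc26a3 had 43.8, 41.3 and 48.3 TPM in control I, II and III and 11.1, 10.1 and 10.6 with Tgfb, 4.19-fold less (difference -1.97, -2.16 to -1.77, adjusted p = 1.09e-05). Slc9a3 had 14.6, 13.2 and 19.8 TPM in control and 5.28, 4.65 and 4.32 with Tgfb (-1.54, -1.92 to -1.15, adjusted p = 0.000343). Slc26a6 had 35.1, 28.8 and 35.1 TPM in control and 15.5, 11.4 and 15.3 with Tgfb (-1.18, -1.53 to -0.84, adjusted p = 0.000663). In none of the 3 did treated and control samples overlap, and the share of all genes without overlap was not computed.

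**Figure D3:**
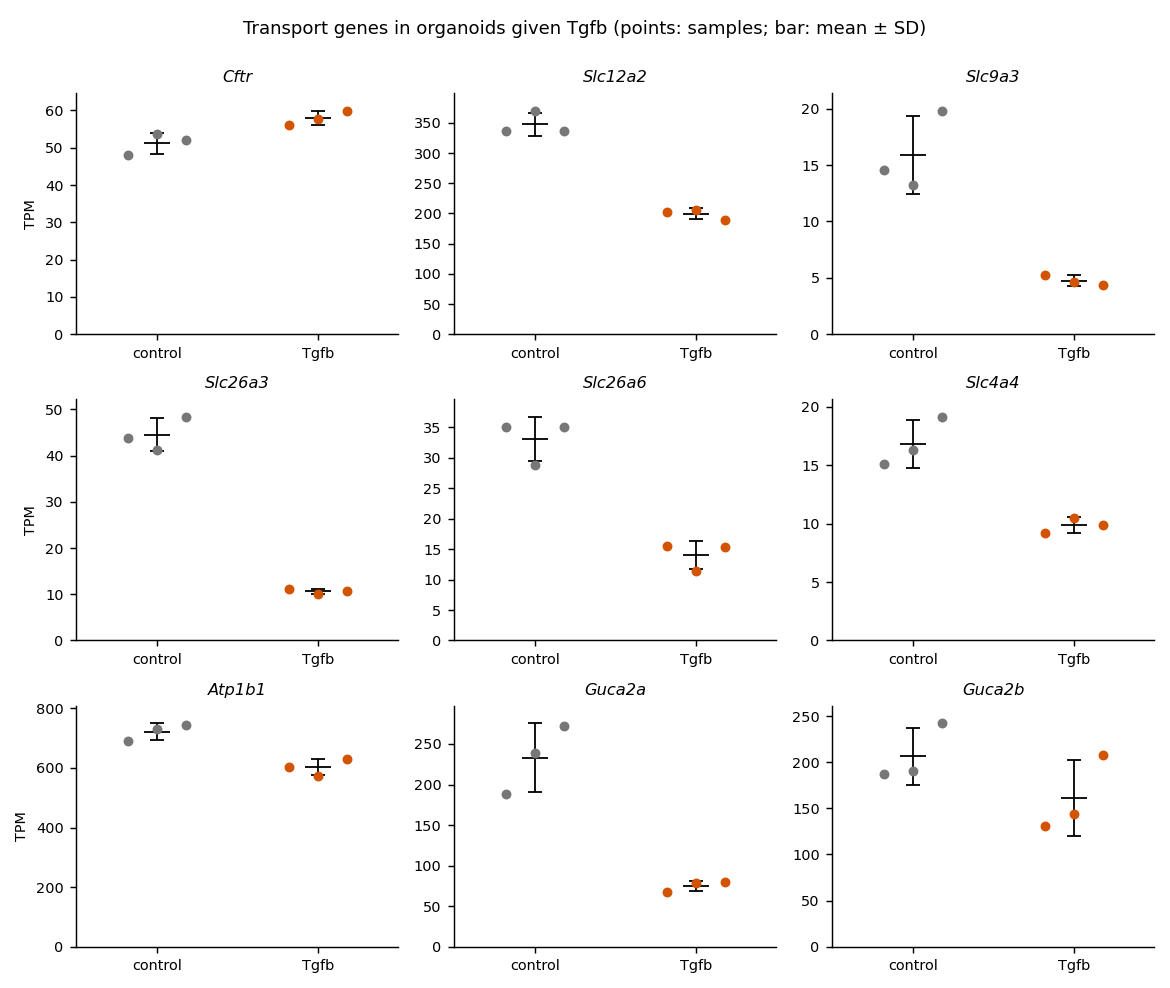
TPM (y axis, linear, from 0) of the 9 genes in each sample of the Tgfb experiment; points are samples and bars the mean ± SD, with 3 samples a group. Slc26a3 is between 10.1 and 11.1 TPM with Tgfb and between 41.3 and 48.3 in control, while Cftr is slightly higher with Tgfb and Guca2b overlaps.

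Slc4a4, the sodium-bicarbonate cotransporter of the basolateral side, was the 1 member that no BMP ligand changed in the test without pairing. Control II, III, IV and VI had 2510, 2230, 2090 and 1930 normalized counts, Bmp2 II, III, IV and VI had 3170, 3670, 2520 and 1510, and Bmp4 II, III and VI had 3390, 3610 and 1830. In both ligand groups sample VI lay below all controls and the other samples above them. The differences of 0.24 with Bmp2 and 0.37 with Bmp4 did not pass (adjusted p = 0.388 and 0.238). Bmp4 passed with samples paired by number (0.35, adjusted p = 0.0263) and without Bmp4 VI (0.68, adjusted p = 0.0362), and its sign turned with all samples at the same total (-0.03, adjusted p = 0.935). Bmp2 turned sign under that scaling too (-0.22) and after quantile normalization (-0.16). With Bmp7 the samples II, III and VI had 1820, 2170 and 1300, a difference of -0.34 that passed with pairing (-0.35, adjusted p = 0.0409) and not without (0.355). Tgfb lowered Slc4a4 from 15.1, 16.3 and 19.1 TPM to 9.21, 10.5 and 9.91, without overlap (-0.71, -0.96 to -0.46, adjusted p = 0.00146).

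Atp1b1, the pump subunit, rose with Bmp4. Control II, III, IV and VI had 22400, 21100, 22500 and 22600 normalized counts, a coefficient of variation of 3.18%, and Bmp4 II, III and VI had 49100, 46600 and 38100. The Bmp4 mean was 2.01-fold the control mean (difference 1.00, 0.78 to 1.23, adjusted p = 1.80e-07). Its size depended on the processing: it was 0.93 to 1.11 with a sample left out, but 0.26 to 1.11 over all alternatives. It passed in each, at an adjusted p of at most 0.0404. Bmp2 II, III, IV and VI had 26000, 34700, 27100 and 27800, also above every control, and the difference of 0.37 (0.17 to 0.58) had an adjusted p of 0.00217. This Bmp2 direction depended on the scaling, since it was -0.08 with all samples at the same total (adjusted p = 0.447) and -0.34 after quantile normalization (adjusted p = 0.00511). Bmp5 samples had 18000, 16200 and 17300 and Bmp7 samples 18000, 16700 and 17400 (II, III, VI), all below control, with differences of -0.37 (adjusted p = 0.0156) and -0.35 (adjusted p = 0.0172). With Tgfb the level went from 689, 731 and 743 TPM to 604, 574 and 630. The difference of -0.26 passed (adjusted p = 0.0223), but not without control II (adjusted p = 0.0812), control III (0.0824) or Tgfb II (0.0815).

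The 2 guanylin genes did not respond alike. Guca2a had 1240, 1130, 785 and 1170 normalized counts in control II, III, IV and VI and 183, 105, 74.1 and 140 with Bmp2. This was an 8.61-fold lower mean with no overlap (difference -3.15, -3.71 to -2.60, adjusted p = 2.87e-09). Guca2b had 975, 956, 1350 and 1310 in control and 858, 1070, 819 and 1170 with Bmp2, overlapping sets (-0.23, -0.60 to 0.15, adjusted p = 0.262). With all samples at the same total the Guca2b difference passed at -0.69 (adjusted p = 0.00172). Within a sample, the ratio of Guca2a to Guca2b counts was 0.581 to 1.27 in control and 0.0905 to 0.213 with Bmp2. These ratios are not corrected for length, so only their change between groups can be read, and that change does not depend on the scaling.

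Bmp4 gave no call for either peptide. Guca2a had 945, 955 and 458 normalized counts in Bmp4 II, III and VI, of which VI lay below all controls (-0.52, adjusted p = 0.122). With samples paired by number it passed (-0.68, adjusted p = 0.00705), and likewise with all samples at the same total (-0.91, adjusted p = 0.00872). Guca2b had 1320, 1430 and 1340 (0.27, adjusted p = 0.24), with the sign turned at the same total (-0.13, adjusted p = 0.549). Directly compared, Bmp2 was below Bmp4 in Guca2a by 2.64 on the log2 scale (interval -3.24 to -2.04, adjusted p = 1.59e-07). In Guca2b the difference was -0.49 (-0.90 to -0.09, adjusted p = 0.032). The Guca2b call was lost with edgeR on recovered reads (adjusted p = 0.0652), after quantile normalization (0.0578), and without Bmp2 II (0.0776), Bmp2 IV (0.0893), Bmp4 II (0.0567), Bmp4 III (0.0877) or Bmp4 VI (0.0597).

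Bmp7 lowered both peptides. Guca2a had 561, 722 and 558 normalized counts in Bmp7 II, III and VI, below every control (-0.81, adjusted p = 0.0373), and Guca2b had 489, 619 and 916, likewise (-0.80, adjusted p = 0.00402). The Guca2a call was lost without any single sample except Bmp7 III or control IV, at adjusted p of 0.0751 to 0.115. With Bmp5, Guca2a had 798, 699 and 536 and Guca2b had 762, 679 and 980. Neither passed on the deposited scale without pairing (Guca2a adjusted p = 0.0915, Guca2b 0.0619), and both passed with samples paired by number (Guca2a -0.83, adjusted p = 0.00433; Guca2b -0.49, adjusted p = 0.0166). Without pairing, both also passed with DESeq2 on recovered reads (adjusted p = 0.0467 and 0.0406), Guca2a with only the 2 groups in the fit (0.0273), and Guca2b after quantile normalization (0.0288), at the same total (0.039) and without Bmp5 VI (0.0417). Tgfb lowered Guca2a from 188, 239 and 272 TPM to 68.1, 78.3 and 79.5 (-1.60, -1.96 to -1.25, adjusted p = 0.000205). Guca2b had 187, 190 and 242 TPM in control and 131, 144 and 208 with Tgfb, which overlapped (-0.37, -0.85 to 0.10, adjusted p = 0.15), and passed without Tgfb III (-0.57, adjusted p = 0.0205).

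**Figure D4:**
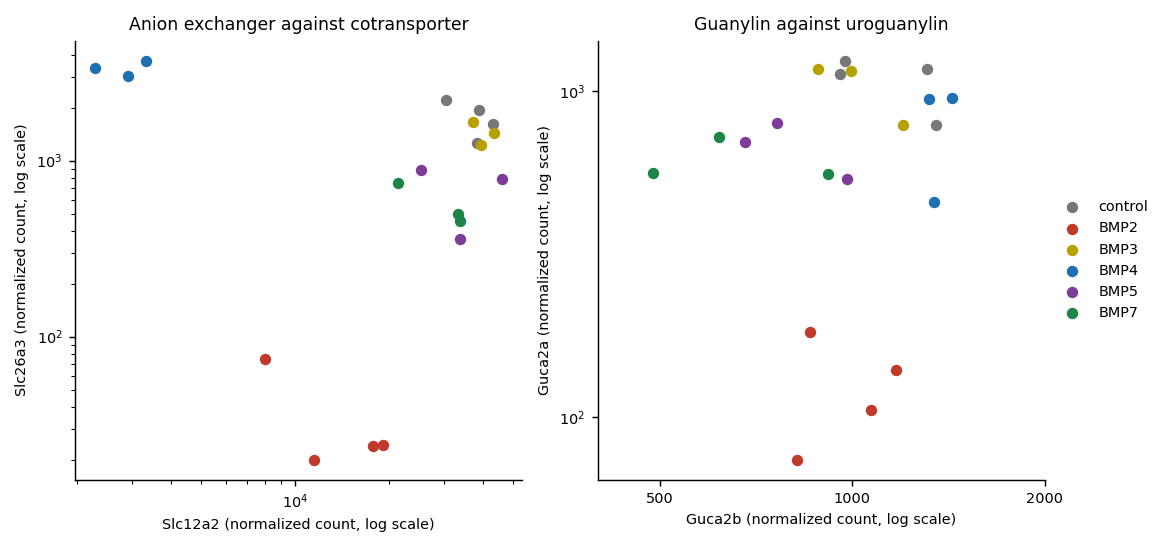
Left, Slc26a3 against Slc12a2, and right, Guca2a against Guca2b, in normalized counts per sample of the BMP experiment (all axes log scale, 1 point a sample, coloured by group). Bmp4 samples lie at low Slc12a2 and high Slc26a3, Bmp2 samples are low in both, and on the right the Bmp2 samples fall to 74.1 to 183 in Guca2a within the Guca2b range of 819 to 1170.

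The balance of Slc26a3 to Slc12a2 therefore shifted in opposite directions with Bmp4 and Bmp2. No other pair of an absorptive and a secretory gene was computed, and the sodium-proton exchanger Slc9a2 rose with Bmp2 where Slc12a2 fell. The ratio of Slc26a3 to Slc12a2 counts within a sample was 0.0329 to 0.0727 in control, against 1.04 to 1.47 in Bmp4 samples and 0.00127 to 0.00934 in Bmp2 samples. For Bmp5 II, III and VI it was 0.017, 0.0106 and 0.0349, and for Bmp7 II, III and VI 0.015, 0.0135 and 0.035. Each was below the control of the same number (0.0374, 0.0329 and 0.0727), and sample VI of both ligands lay inside the range of the controls. In TPM it was 0.112 to 0.144 in control and 0.0489 to 0.0561 with Tgfb. As a description over the 20 BMP samples, which share ligand groups, the log values of Slc9a3 and Slc26a3 had a Pearson correlation of 0.99 and those of Slc9a3 and Slc26a6 one of 0.90. Cftr and Slc12a2 had 0.73, Slc12a2 and Atp1b1 -0.84, and Guca2a and Guca2b 0.09.

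The genes whose pattern over these 20 samples was most like each member, of 14746 compared by Pearson correlation, are given 2 a member. For Slc26a3 they were Tysnd1 (0.989) and Aadac (0.988), for Slc9a3 Slc26a3 itself (0.986) and Pbld2 (0.985), and for Slc26a6 Btnl1 (0.993) and 1600014C10Rik (0.992). Cftr was closest to Aldh7a1 (0.979) and Pbx3 (0.975), and Slc12a2 to Znrf3 (0.982), a Wnt feedback gene, and Tmem131l (0.979). Atp1b1 was closest to Tspan13 (0.980) and Zg16 (0.958), and Guca2a to Galk1 (0.986) and Nit2 (0.985). Slc4a4 and Guca2b had no such close partner, their nearest being Gdf15 (0.842) and Pcsk1 (0.827), and Selenoo (0.897) and AW549877 (0.877).

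The other genes of these pathways were taken from 7 lists holding 62 genes, of which 48 were tested in the BMP table and 42 in the Tgfb table. Bmp2 raised 17 and lowered 18 of the 48, Bmp4 raised 24 and lowered 15, Bmp5 raised 11 and lowered 10, and Bmp7 raised 12 and lowered 12. Tgfb raised 18 and lowered 16 of the 42, and Bmp3 changed 0 of 48. The raised counts with Bmp2, Bmp5 and Bmp7 include Slc26a9, which passed the filter on low values only through the groups where it was high. The share of these genes called was 72.9% for Bmp2 beside 75.1% of all genes, 81.2% for Bmp4 beside 65.1%, 43.8% for Bmp5 beside 26.3%, 50% for Bmp7 beside 32.4% and 81% for Tgfb beside 56.7%. The share with Bmp2 was near the background, and the differences between the shares were not tested. Setting all samples to the same total moved the split to 13 raised against 28 lowered with Bmp2, and to 16 against 17 with Bmp4. The medians were -0.10 (Bmp2), 0.47 (Bmp4), 0.04 (Bmp5), 0.13 (Bmp7) and 0.09 (Tgfb). Genes of these lists went both ways with each of those 5 ligands.

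Of the water channels, Bmp2 lowered 4 of 6 tested and raised 0 (median -3.64), with 75.1% of all genes called. Bmp7 lowered 4 of the 6 (32.4% of all genes called), Bmp5 lowered 3 (26.3%) and Tgfb lowered all 3 tested (56.7%), and none of these ligands raised any. Aqp1 averaged 1828 ± 286 normalized counts in control (n = 4), 5.53 ± 4.33 with Bmp2 (n = 4) and 60.8 ± 11.8 with Bmp4 (n = 3). Aqp4, a basolateral water channel, went from 2942 ± 340 to 8.86 ± 4.32 and 43.5 ± 5.54. Both were also lower with Tgfb, Aqp1 at 2.80 against 50.8 TPM and Aqp4 at 1.04 against 46.8. With Bmp4, 3 of 6 water channels rose and 2 fell (65.1% of all genes called), and all 6 were lower with Bmp2 than with Bmp4.

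Among chloride and potassium channels, Bmp2 raised 3 and lowered 2 of 7 (75.1% of all genes called), Bmp4 raised 2 and lowered 3 (65.1%), and Tgfb raised 3 and lowered 3 of 6 (56.7%). At the same total the majority with Bmp2 turned, with 3 higher and 4 lower, and Bmp4 gave 1 and 4. Ano1, a calcium-activated chloride channel, rose from 745 ± 137 normalized counts to 5440 ± 1426 with Bmp2, and its level was 4743 ± 1419.5 in Bmp5 samples and 4870 ± 717 in Bmp7 samples, also higher than control. Bmp4 samples had 536 ± 88.4, and Bmp2 exceeded them by 3.32 on the log2 scale (adjusted p = 6.23e-10). With Tgfb it rose from 3.60 ± 0.353 to 171 ± 17.0 TPM (difference 5.22, adjusted p = 1.71e-06). Slc26a9, an anion transporter, had 3.47 ± 3.17 normalized counts in control, 32.8 ± 10.4 with Bmp2, 36 ± 18.4 with Bmp5 and 33.6 ± 2.44 with Bmp7. It passed the filter on low values only through the groups where it was high, so these values are a description. The count of channels raised with Bmp2 nevertheless includes it.

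In sodium absorption, 4 of 6 genes rose and 2 fell with Bmp2 (75.1% of all genes called) and 5 rose and 1 fell with Bmp4 (65.1%). At the same total these counts were 3 and 2 with Bmp2 and 3 and 1 with Bmp4. Slc9a2, a second sodium-proton exchanger, went from 985 ± 116 normalized counts to 9358 ± 752 with Bmp2 and 6140 ± 88.9 with Bmp4, so with Bmp2 it rose (3.25, adjusted p = 6.43e-13) where Slc9a3 fell. Tgfb also raised it, from 9.83 ± 1.57 to 29.8 ± 5.69 TPM. Pdzk1, a scaffold protein of the brush border that binds Slc9a3 and Cftr, rose with Bmp4 from 74.4 ± 44.5 to 789 ± 180 (3.53, adjusted p = 5.66e-06). It was lower with Bmp2 (-1.06, adjusted p = 0.0462), a call lost after quantile normalization (0.118), without the filter (0.0657) and without Bmp2 II (0.101), Bmp2 IV (0.15), control III (0.054), control IV (0.0702) or control VI (0.179).

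Bicarbonate genes numbered 4 higher and 2 lower of 9 with Bmp2 (75.1% of all genes called) and 5 higher and 2 lower with Bmp4 (65.1%). The Bmp2 majority turned at the same total, with 4 higher and 5 lower, and was even after quantile normalization, at 4 and 4. Slc4a5, a sodium-bicarbonate cotransporter like Slc4a4, fell from 324 ± 66.4 normalized counts to 13.5 ± 6.47 with Bmp2 and rose to 968 ± 142 with Bmp4, the same pair of directions as the exchangers. Car12, a membrane carbonic anhydrase, fell from 1252 ± 125 to 117 ± 31.2 and 163 ± 39.0 with the same ligands, the pair of directions of Cftr and Slc12a2. Among the 3 other genes of the sodium pump tested, Fxyd3, a pump regulator, rose with Bmp2 from 536 ± 49.5 to 1782 ± 162.

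In the guanylate cyclase C and cyclic nucleotide list, 5 of 9 genes fell and 0 rose with Bmp2 (75.1% of all genes called), and 4 rose and 2 fell with Bmp4 (65.1%). At the same total 8 fell and 0 rose with Bmp2, while Bmp4 gave 3 in each direction, as it did after quantile normalization. Gucy2c, the receptor of both guanylins and named here with its values already known, went from 4908 ± 487 normalized counts to 1585 ± 483 with Bmp2 (-1.67, adjusted p = 3.94e-08) and from 81.4 ± 6.67 to 30.1 ± 3.12 TPM with Tgfb (-1.40, adjusted p = 7.63e-05). Its rise to 7757 ± 805 with Bmp4 (0.66, adjusted p = 0.00376) did not pass with all samples at the same total (0.26, adjusted p = 0.19) or after quantile normalization (0.17, adjusted p = 0.373). Vipr1, a receptor of the secretagogue VIP, fell from 1618 ± 404 to 131 ± 67.0 with Bmp2 and rose to 3233 ± 718 with Bmp4. Abcc4, a cyclic nucleotide exporter, fell with Bmp4 from 612 ± 101 to 93.6 ± 12.4. In the cation-chloride list, Slc12a4, a potassium-chloride cotransporter, rose with Bmp2 from 18.9 ± 1.03 to 340 ± 49.0, and Wnk4, a kinase that regulates such cotransporters, fell from 296 ± 42.8 to 92.6 ± 21.3.

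**Figure D5:**
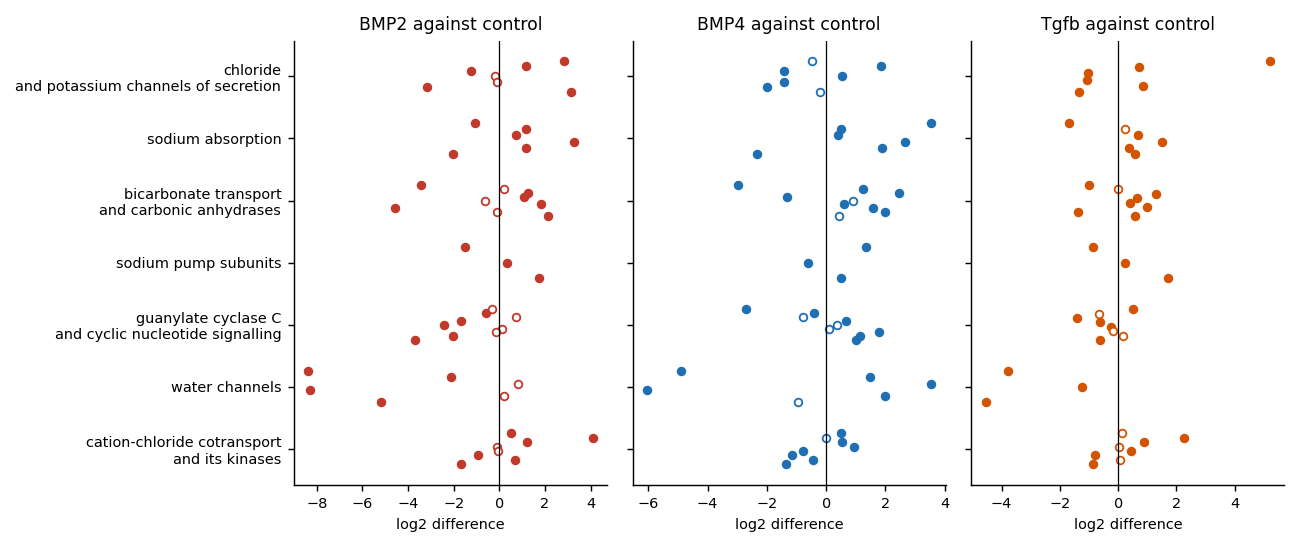
Difference from control (x axis, log2 units, a separate range in each panel) of each tested gene in the 7 transport lists for Bmp2, Bmp4 and Tgfb; 1 point a gene, filled where the adjusted p was under 0.05. Most lists hold points on both sides of 0, and the water channels reach -8.38 with Bmp2.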

How the data were processed

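RNA of 26 organoid samples was analysed; the 2 mesenchymal samples were not used here. Per the submitters' processing notes, the tools were Trim Galore, Salmon and DESeq2 and the build was GRCm39. As deposited by the authors, the BMP table holds signal values, read counts divided by a size factor per sample and written to 3 significant digits; 100% of 180721 low values came out as whole reads within 0.1 read, and 20.5% of values above 0 exceed 999 and are rounded. The Tgfb table as deposited holds TPM, which sum to 1000000 and keep no depth. Because neither table holds raw counts, limma 3.58.1 (R 4.3.3) with an intensity trend was used on log2(value + 1), on genes with a mean of at least 10 normalized counts (14746 genes) or 1 TPM (12959), with all 20 BMP samples in 1 fit and the 6 Tgfb samples in another. A fold change on this scale is understated for low genes. Tests were two-sided, with Benjamini-Hochberg adjustment over all genes. The tables were scaled separately and are not compared in level, and ligands set against the same controls share those samples.

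Calls come from fits without pairing unless pairing is named. Pairing by number was an alternative, read as pairing where every number's deviations correlated above 0.1. With control these correlations were 0.281 to 0.553 for Bmp3, 0.19 to 0.225 for Bmp4, 0.158 to 0.262 for Bmp5 and 0.236 to 0.294 for Bmp7. Between Bmp5 and Bmp7 they were 0.15 to 0.489. Alternatives were pseudocounts of 0.1 and 10, no filter, filters of 50 normalized counts or 10 TPM, equal totals, quantile normalization, the replicate number as a block, only the 2 groups compared, edgeR 4.0.16 and DESeq2 1.42.0 on recovered reads, and each sample left out. The fits were tested on simulated data. Dcn has no row in the BMP table. All 9 members were named, from each list the 2 genes with the largest differences over the comparisons with control that passed the test with groups that do not overlap, and the 2 most correlated genes a member. The members and lists were chosen with earlier results of these data known. Sequences are from RefSeq (GRCm38.p6), another build than that of the files, and 1 member's sequence and 1 gene of the lists that the rule named are not reported here.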

Additional observations from a re-analysis of the deposited data

Results flagged for a closer look

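In 18 groups of 4 samples, 9 genes in control and in Bmp2, the highest or lowest sample was compared with its nearest neighbour by Dixon's test at the 95% level, which chance passes in about 1 of 20 groups; 3 groups passed. Bmp2 VI was far above the other Bmp2 samples in Slc9a3 (78.5 normalized counts against 15.9 to 22.4) and in Slc26a3 (74.7 against 20 to 24.3). In the control group, sample III was low in Atp1b1 (21100.0 against 22400 to 22600).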

How the results depend on the processing

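Of 1188 values of single members under an alternative, 1101 kept their direction and side of the threshold, 38 no longer passed, 20 newly passed and 29 changed sign; of the values that changed sign, Atp1b1 with Bmp2 alone had passed the test on the deposited scale. For the other transport genes named, 973 of the values of called differences were kept and 31 no longer passed. With Bmp5 the count of members called was 3, against 5 with DESeq2, 6 with the replicate block and 0 to 4 with a sample left out. With Bmp7 it was 6, against 3 without the filter and 3 to 5 with a sample left out. The replicate block added Slc12a2 and Slc4a4 to the calls with Bmp7. Quantile normalization gave -0.16 for Slc4a4 and -0.34 for Atp1b1 with Bmp2, -0.09 for Cftr with Bmp7 and 0.01 for Atp1b1 between Bmp5 and Bmp7. Equal totals gave -0.22 for Slc4a4 and -0.08 for Atp1b1 with Bmp2, -0.03 for Slc4a4 and -0.13 for Guca2b with Bmp4, -0.01 for Cftr with Bmp7 and 0.01 for Atp1b1 between Bmp5 and Bmp7. The replicate block gave -0.05 for Slc12a2 with Bmp3. With a sample left out, the differences with Bmp3 ran from -0.01 to 0.16 for Slc12a2, -0.003 to 0.05 for Atp1b1 and -0.21 to 0.12 for Guca2a. With Bmp5 they ran from -0.10 to 0.04 for Cftr, -0.36 to 0.08 for Slc12a2 and -0.27 to 0.02 for Slc4a4, and between Bmp2 and Bmp4 from -0.44 to 0.13 for Slc4a4. Between Bmp5 and Bmp7 they ran from -0.17 to 0.54 for Slc9a3, -0.07 to 0.58 for Slc26a3, -0.51 to 0.08 for Slc26a6, -0.03 to 0.35 for Slc4a4 and -0.05 to 0.02 for Atp1b1. The cause of these changes was not tested. Numbers did not pair the samples of Tgfb (0.00405 to 0.0696). Bmp2 was not read as paired because III correlated at 0.0182 with control III. Bmp2 II, IV and VI did correlate best with the control of their own number, at 0.195, 0.421 and 0.308. The replicate block let Cftr (adjusted p = 0.0418) and Guca2b (0.014) pass with Tgfb, where 1 of 3 samples correlated best with its own number. It changed no member's call with Bmp2. In the paired comparisons it changed no other member's call than those given with the results. Count tests were not run on TPM, and its depth is unknown.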
